A study of Mus musculus with 16 samples.

Results

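Interferon-stimulated genes are the genes that cells switch on after interferon binds its receptors. The group described here is a list of 41 mouse genes known to be interferon-inducible, among 54838 genes counted in each sample, and all 41 were found in the files. The list was proposed with earlier results of these data in view. It singles out Ifi27l2b, because it was higher after both liver challenges, and Irf7, because it was not. Those 2 genes were chosen by their values, so they are described without a test, and the counts of changed genes below cover the other 39.

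RNA of whole liver from male wild-type C57BL/6J mice was measured by sequencing of mRNA libraries, 1 library per sample. In the chemical challenge, 3 livers were taken 3 days after an intraperitoneal injection of carbon tetrachloride (CCl4) mixed with olive oil, at 2 µL per g body weight, and 3 livers 3 days after the same volume of olive oil alone. In the surgical challenge, 5 livers were taken 3 days after partial hepatectomy (PH day 3), and 5 samples of resected liver served as the baseline (PH day 0). CCl4 is a toxin that hepatocytes convert to a damaging radical, whereas partial hepatectomy removes liver tissue and leaves the remainder to regrow. The ages of the mice are not given in the sources used here, and the baseline is resected tissue rather than liver after a sham operation. Total counts per library were 4738196 to 6218526 for CCl4, 4295169 to 5221957 for olive oil, 2795909 to 4391002 for PH day 3 and 3271398 to 8647503 for PH day 0. Hepatocyte markers summed to 72237 to 123797 CPM (counts normalised to library size) over the 16 libraries, and the tissue label was met in each.

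Type I and type III interferons act through Janus kinases on a complex that includes STAT2 and IRF9, which binds a DNA element called the interferon-stimulated response element (ISRE). Interferon gamma acts mainly at another element, the gamma-activated sequence (GAS). The products of the induced genes block viral entry and replication, sense foreign nucleic acid, coat intracellular pathogens or feed back on the pathway itself. In liver this response is best known from viral hepatitis, and both hepatocytes and the resident macrophages (Kupffer cells) can mount it.

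The promoters were searched for motifs that some of these genes share apart from their place on the list. RefSeq promoter sequences (build GRCm38.p6, 250 bases before to 50 bases after the start) were matched by symbol for 31 of the 41 genes, with 38 promoters in all. The core of the ISRE was searched as GAAA, any 2 bases and GAAA again, on both strands, and overlapping matches were each counted. It was found in 17 of the 31 genes (54.8%, exact 95% interval 36.0% to 72.7%), against 1079 of 27025 genes with a promoter in the same table (3.99%). A longer form, the core followed by CT, which therefore overlaps it, was found in 11 of the 31 genes (35.5%), against 0.303% of all genes. The GAS motif TTCNNNGAA was found in 10 of the 31 (32.3%), against 9.55% of all genes. These shares describe letters in a window and do not show binding. In the first promoter listed for each gene, the 26 matches to the ISRE core lay between positions -222 and 33 from the start, 22 of them before the start and 15 within the last 100 bases before it. There were 8 genes with at least 2 matches.

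Of the genes that changed in 1 or both challenges, 8 hold the ISRE core before the start. Changed genes without it there, such as Oasl1, Ifi47 and Ifitm3, are not shown. Stretches of those 8 promoters are given below, so that the shared letters can be seen beside the values. Each runs 5′ to 3′ on the strand of the gene, with at most 20 bases either side of the outermost ISRE core matches before the start and none past it. Capitals mark the ISRE core, which reads TTTC, any 2 bases and TTTC where the match is on the opposite strand.
Ifit1, chr19:34640765-34640833, plus strand: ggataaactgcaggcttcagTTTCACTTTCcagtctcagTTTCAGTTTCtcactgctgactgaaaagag
Ifit3, chr19:34583353-34583436, plus strand: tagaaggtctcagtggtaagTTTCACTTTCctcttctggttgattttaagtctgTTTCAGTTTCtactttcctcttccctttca
Oas1a, chr5:120907526-120907565, minus strand: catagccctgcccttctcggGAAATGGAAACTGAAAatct
Gbp2, chr3:142620584-142620633, plus strand: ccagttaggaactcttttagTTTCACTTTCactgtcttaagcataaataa
Gbp3, chr3:142559979-142560034, plus strand: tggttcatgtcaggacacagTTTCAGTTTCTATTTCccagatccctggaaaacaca
Bst2, chr8:71537567-71537622, minus strand: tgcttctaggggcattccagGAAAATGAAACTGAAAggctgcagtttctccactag
Irgm1, chr11:48871421-48871470, minus strand: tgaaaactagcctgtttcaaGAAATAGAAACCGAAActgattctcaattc
Slfn9, chr11:82991846-82991895, minus strand: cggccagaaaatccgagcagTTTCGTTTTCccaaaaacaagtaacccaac
Of the 9 genes that were higher after CCl4 (below), 7 had a promoter in the table and 6 held the core, Oasl1 being the one without it. Of the 6 that were lower after PH, 4 had a promoter and 3 held the core, Ifi47 being the one without it. Over all members with a promoter the core was in 17 of 31. It was also in Ifih1, Ifitm2, Isg15, Gbp7, Stat2, Rsad2, Igtp and Ddx58, none of which was called in either challenge. Whether the core goes with change was not tested. In Ifit1 and Ifit3 the core occurs in a pair, and in Oas1a, Gbp3, Bst2 and Irgm1 a pair of matches overlaps.

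**Figure D1:**
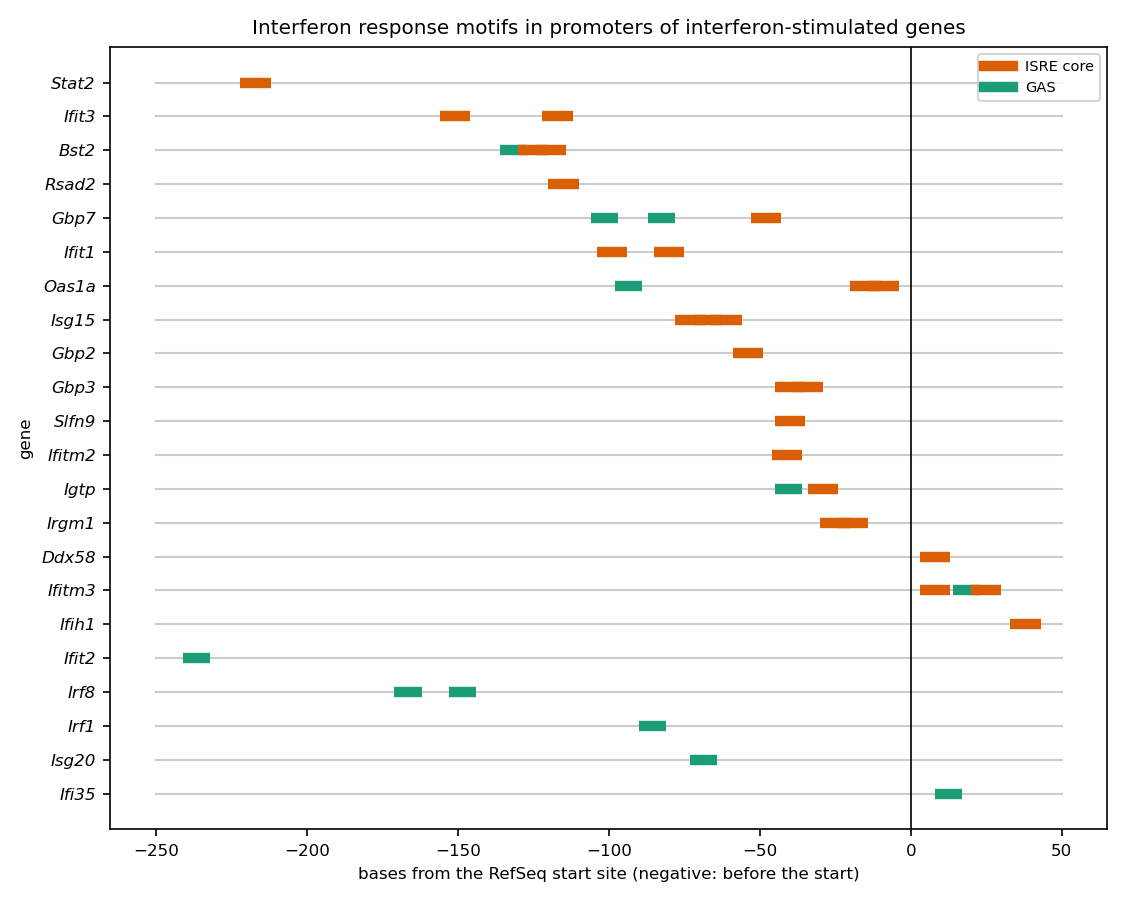
Positions of the ISRE core (orange) and GAS (green) motifs in RefSeq promoters of the interferon-stimulated genes that hold either one, in bases from the start site on the horizontal axis, 1 gene per row (first promoter listed; overlapping motifs are drawn over each other). Grey lines mark the window of 250 bases before to 50 bases after the start, and 22 of the 26 ISRE core matches lie before the start.

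After CCl4, 9 of the 39 genes rose relative to olive oil and 0 fell at a Benjamini-Hochberg adjusted p under 0.05 in edgeR's quasi-likelihood test. Over all 11337 genes tested in this comparison 22.9% were called, 11.3% higher and 11.6% lower. Without adjustment, 13 of the 39 were higher and 1 was lower at p under 0.05; DESeq2 called 12 higher and 0 lower, and limma-voom 8 higher and 0 lower. The median log2 fold change of the 39 genes was 0.52, with 27 positive and 12 negative, while that of all genes tested was 0.01. With scaling by library size only, the all-gene median moved up by 0.45 (log2), and the higher share of all calls was 87.5% in place of 49.2%. The median of the 39 was then 0.96, and 17 of them were called higher. The count of 9 fell to 5 without CCl4 replicate 3, to 4 without olive oil replicate 1 and to 3 without olive oil replicate 3.

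The IFI27 family, small mitochondrial and nuclear-envelope proteins encoded side by side on chromosome 12, held 2 of the 9 calls beside Ifi27l2b. Ifi27l2b (chr12:103450898-103457223, GRCm38) had 50.1, 74.8 and 72.5 CPM in CCl4 livers, against 6.02, 7.61 and 6.83 CPM in olive oil livers (CPM here are scaled by TMM factors over all 16 samples). It had 65.0, 56.3, 38.5, 43.0 and 43.8 CPM in PH day 3 livers, against 7.06, 6.18, 7.46, 7.42 and 4.74 CPM in PH day 0 livers. Every challenged liver was above every control, and the fitted log2 fold changes were 3.24 ± 0.21 (SE) after CCl4 and 2.91 ± 0.18 after PH. Ifi27l2b was chosen for this rise, so these values describe it and are not a test. Ifi27 (chr12:103434211-103440239) had 118, 146 and 151 CPM in CCl4 livers, against 68.5, 63.7 and 80.6 CPM in olive oil livers. The groups did not overlap, and the log2 fold change was 0.94 ± 0.15 (SE; adjusted p = 0.002), a call that held under every alternative run (here and below, at the 0.05 threshold). Ifi27l2a (chr12:103442167-103443680) had 6.95, 15.7 and 17.2 CPM in CCl4 livers, against 2.76, 6.74 and 2.83 CPM in olive oil livers. Its log2 fold change was 1.66 ± 0.44 (adjusted p = 0.024), and CCl4 replicate 1 lay just above the highest control. Ifi27l2a lost its call on removal of CCl4 replicate 2 or 3, and on removal of olive oil replicate 1 or 3 (adjusted p up to 0.11). Reads that map to more than 1 place were not counted, per the file headers, so values of close copies such as Ifi27l2a and Ifi27l2b, Slfn8 and Slfn9, Ifit3 and Ifit3b, Oas1a and Oas1g, and the Gbp genes are uncertain.

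Among the IFITM proteins, which block viral fusion at membranes, Ifitm3 had 513, 360 and 468 CPM in CCl4 livers, against 261, 316 and 276 CPM in olive oil livers. The groups did not overlap, and the log2 fold change was 0.63 ± 0.20 (adjusted p = 0.042). It was lost on removal of CCl4 replicate 3 or of any 1 control (adjusted p up to 0.16). Ifitm1 and Ifitm2 did not pass, at 1.25 ± 0.57 (adjusted p = 0.14) and 0.41 ± 0.52 (adjusted p = 0.62).

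Slfn9, a member of the Schlafen family of growth and antiviral regulators (chr11:82978390-82991830), showed the largest change of the tested 39. It had 43.0, 41.9 and 36.9 CPM in CCl4 livers, against 4.77, 3.92 and 4.00 CPM in olive oil livers. That is a log2 fold change of 3.23 ± 0.20 (adjusted p = 2.2e-05), or 9.41-fold, and the call held under every alternative. Its relative Slfn2, at 6.70 ± 2.59 CPM in CCl4 livers and 2.81 ± 0.628 CPM in olive oil livers (SD, n = 3 each), did not pass (log2 fold change 1.22 ± 0.41, adjusted p = 0.056).

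The antiviral effectors gave 3 calls among 10 genes, all higher, where 11.3% of all genes tested were called higher. Oas1a encodes an oligoadenylate synthetase, an enzyme that turns double-stranded RNA into a signal for RNA decay. It had 8.42, 8.55 and 12.3 CPM in CCl4 livers, against 0.752, 3.26 and 2.83 CPM in olive oil livers, and the log2 fold change was 2.04 ± 0.45 (adjusted p = 0.0094). The groups did not overlap and the call held under every alternative. The olive oil values rested on only 3, 15 and 12 counts, so the size of the change is uncertain. Oasl1, a relative that in mice represses translation of Irf7, had 19.4, 18.2 and 25.3 CPM in CCl4 livers, against 12.3, 12.0 and 8.72 CPM in olive oil livers. Its log2 fold change was 0.90 ± 0.23 (adjusted p = 0.018), and removing the third CCl4 liver or the third control took it past the threshold (adjusted p up to 0.079). Bst2 encodes tetherin, which holds budding virions at the cell surface, and had 171, 145 and 202 CPM in CCl4 livers, against 86.8, 120 and 93.0 CPM in olive oil livers. The groups again did not overlap, with a log2 fold change of 0.76 ± 0.18 (adjusted p = 0.013), and removing olive oil replicate 1 or 3 undid the call (adjusted p up to 0.08). Of the other effectors, Ifit1, which binds foreign RNA caps, pointed the other way, at 8.00, 4.71 and 4.92 CPM in CCl4 livers and 13.8, 8.27 and 8.24 CPM in olive oil livers. Its groups did not overlap, but the log2 fold change of -0.82 ± 0.35 did not pass (adjusted p = 0.12); without CCl4 replicate 1 it was -1.09 (adjusted p = 0.033).

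Of the 8 interferon-inducible GTPases, which attack the vacuoles of intracellular pathogens, the guanylate-binding proteins Gbp2 and Gbp3 rose. Over all genes tested 11.3% were called higher. Gbp2 had 8.42, 7.93 and 5.74 CPM in CCl4 livers, against 2.26, 3.48 and 3.06 CPM in olive oil livers (log2 fold change 1.29 ± 0.36, adjusted p = 0.028). Gbp3 had 15.6, 10.2 and 10.8 CPM in CCl4 livers, against 4.77, 6.96 and 5.42 CPM in olive oil livers (1.05 ± 0.30, adjusted p = 0.029). Neither gene's groups overlapped. Gbp2 lost its call on removal of CCl4 replicate 2 or of any 1 control (adjusted p up to 0.093). Gbp3 lost its own with limma-voom and on removal of replicate 1 or 3 of either group (adjusted p up to 0.1). Iigp1, a GTPase of the IRG family, had 349, 236 and 199 CPM in CCl4 livers and 388, 310 and 316 CPM in olive oil livers, and did not pass (-0.39 ± 0.23, adjusted p = 0.25). Without CCl4 replicate 1 it was called lower, at -0.66 (adjusted p = 0.0041), and scaled by library size only it was 0.01.

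None of the 4 transcription factors tested, Stat2, Irf9, Irf1 and Irf8, passed after CCl4. Irf7, the factor that amplifies type I interferon production, had 122, 40.5 and 88.8 CPM in CCl4 livers, against 43.1, 54.2 and 35.1 CPM in olive oil livers. One CCl4 liver lay inside the control range and the other two above it, with a log2 fold change of 0.89 ± 0.42. Stat2 had 66.5, 58.4 and 73.2 CPM in CCl4 livers and 74.0, 89.2 and 76.1 CPM in olive oil livers (-0.30 ± 0.14, adjusted p = 0.16). Irf9 had 36.4, 31.1 and 30.9 CPM in CCl4 livers and 35.6, 33.7 and 27.1 CPM in olive oil livers (0.00 ± 0.17, adjusted p = 1.0). Scaled by library size only, Stat2 was 0.15 in place of -0.30. Isg15, the ubiquitin-like modifier that is conjugated to proteins in the response, had 23.6, 8.80 and 15.6 CPM in CCl4 livers, against 9.03, 8.92 and 6.60 CPM in olive oil livers. It did not pass (0.92 ± 0.36, adjusted p = 0.092), although it did without CCl4 replicate 2 (1.23, adjusted p = 0.023), with library size scaling (1.32, adjusted p = 0.01) and without a filter on low counts (0.92, adjusted p = 0.013). Usp18, the protease that removes ISG15, had 14.1, 13.3 and 8.86 CPM in CCl4 livers and 14.8, 14.4 and 8.95 CPM in olive oil livers (-0.10 ± 0.28, adjusted p = 0.84). The 4 sensors of foreign nucleic acid, Ifih1, Ddx58, Dhx58 and Zbp1, had log2 fold changes of -0.10 to 1.10 and adjusted p of 0.28 to 0.76.

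**Figure D2:**
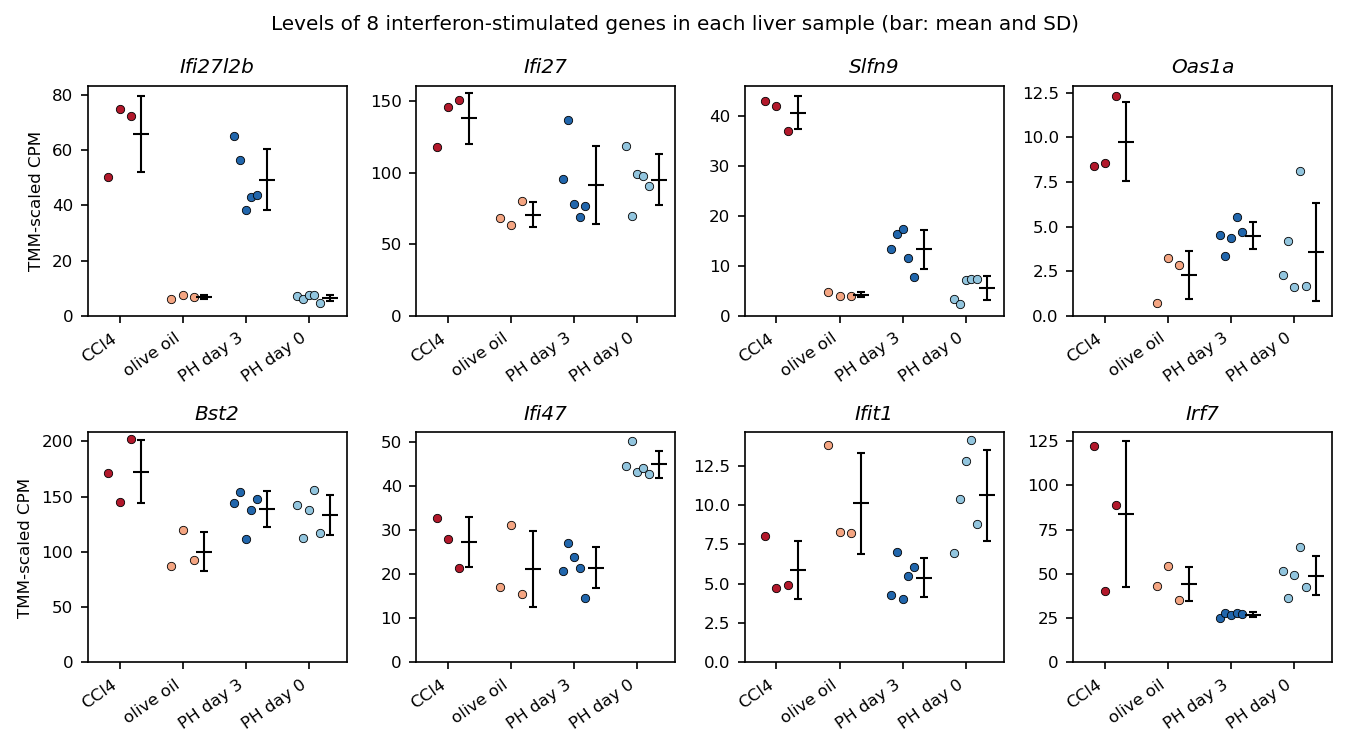
TMM-scaled CPM (vertical axes, linear, from 0) of 8 interferon-stimulated genes in each liver, by group; points are samples, bars the mean and SD (n = 3, 3, 5 and 5). Ifi27l2b is high in both challenges, Slfn9 is highest in CCl4 livers, Ifi27, Oas1a and Bst2 are above their controls in CCl4 livers, and Ifi47 is lower in PH day 3 livers than in PH day 0 livers.

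After partial hepatectomy 1 of the 38 genes tested rose and 6 fell relative to PH day 0, in the same test. Slfn2 was below the filter on low counts in this comparison, at 3.24 ± 1.91 CPM in PH day 3 livers and 2.94 ± 0.406 CPM in PH day 0 livers (SD, n = 5 each). Over all 10546 genes tested 17.7% were called, 9.73% higher and 8.01% lower. The median log2 fold change of the 38 was -0.01, equal to that of all genes tested, with 18 positive and 20 negative. Scaled by library size only, the all-gene median moved up by 0.14 (log2) and the higher share of all calls was 78.9% in place of 54.8%. The median of the 38 was then 0.13, and 3 were called lower.

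Slfn9 was the gene that rose, with 13.4, 16.3, 17.4, 11.5 and 7.76 CPM in PH day 3 livers, against 3.47, 2.47, 7.19, 7.42 and 7.45 CPM in PH day 0 livers. The lowest regenerating liver lay just above the highest baseline, and the log2 fold change was 1.31 ± 0.29 (adjusted p = 0.0028), a call that held under every alternative. Ifi27l2a averaged 7.25 ± 2.00 CPM in PH day 3 livers and 3.97 ± 1.38 CPM in PH day 0 livers (SD, n = 5 each) and missed the threshold (0.88 ± 0.31, adjusted p = 0.053). It passed with DESeq2, with limma-voom, with library size scaling, and without PH day 0 replicate 15 or PH day 3 replicate 13 (adjusted p down to 0.027).

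Ifi47, an IRG-family GTPase (chr11:49076587-49096974), fell most. It had 20.6, 27.0, 23.9, 21.4 and 14.5 CPM in PH day 3 livers, against 44.4, 50.2, 43.2, 44.0 and 42.7 CPM in PH day 0 livers. The groups were far apart, the log2 fold change was -1.04 ± 0.14 (adjusted p = 9.3e-06), and the call held under every alternative. The PH day 0 livers were the high group of the 4, at a mean of 44.9 CPM. PH day 3 livers averaged 21.5 CPM, olive oil livers 21.2 CPM and CCl4 livers 27.3 CPM. The gap between the controls of the separate experiments was not tested. Rtp4, a protein that assists receptor folding and binds viral RNA, had 9.74, 13.0, 9.63, 10.6 and 10.1 CPM in PH day 3 livers, against 17.9, 25.2, 13.1, 14.8 and 22.0 CPM in PH day 0 livers. Its log2 fold change was -0.78 ± 0.20 (adjusted p = 0.0073); the groups did not overlap, though the highest PH day 3 value (13.0) nearly met the lowest PH day 0 value (13.1), and the call held under every alternative.

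Of the 3 IFIT genes, 2 fell, where 8.01% of all genes tested were called lower. Ifit1 had 4.30, 7.01, 4.04, 5.52 and 6.07 CPM in PH day 3 livers, against 6.93, 10.4, 12.8, 14.1 and 8.81 CPM in PH day 0 livers (log2 fold change -0.94 ± 0.26, adjusted p = 0.013). Ifit3 had 7.47, 10.9, 6.52, 5.98 and 8.09 CPM in PH day 3 livers, against 14.8, 7.66, 16.5, 15.5 and 14.9 CPM in PH day 0 livers (-0.81 ± 0.23, adjusted p = 0.017). Each pair of groups overlapped, in Ifit3 through PH day 0 replicate 13. The call of Ifit1 ended without PH day 0 replicate 15 (adjusted p = 0.05), and that of Ifit3 without PH day 3 replicate 15 (adjusted p = 0.052) and with library size scaling (adjusted p = 0.053). Ifit2 did not pass, at 4.00 ± 1.81 CPM in PH day 3 livers and 2.43 ± 0.857 CPM in PH day 0 livers (0.72 ± 0.39, adjusted p = 0.23).

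A further pair of IRG GTPases fell by less. Irgm1, which guards host membranes against its relatives, had 35.6, 50.9, 53.4, 57.3 and 63.1 CPM in PH day 3 livers, against 68.8, 60.1, 67.4, 80.0 and 70.1 CPM in PH day 0 livers (-0.40 ± 0.13, adjusted p = 0.029). Iigp1 had 207, 280, 245, 263 and 267 CPM in PH day 3 livers, against 244, 354, 335, 371 and 388 CPM in PH day 0 livers (-0.40 ± 0.11, adjusted p = 0.016). Both overlapped between groups, Irgm1 through PH day 3 replicate 16 and Iigp1 through PH day 0 replicate 12. With library size scaling both calls ended, at -0.26 and -0.27 (adjusted p = 0.15 and 0.12). The call of Irgm1 also ended without PH day 0 replicate 15 or 16 and without PH day 3 replicate 12 or 13 (adjusted p up to 0.096).

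Irf7 had 25.1, 28.0, 26.7, 28.1 and 27.3 CPM in PH day 3 livers, against 51.7, 36.3, 49.6, 65.1 and 42.4 CPM in PH day 0 livers. The groups did not overlap and the 5 regenerating livers were nearly equal, with a log2 fold change of -0.84 ± 0.14. Stat2 had 88.1, 88.2, 83.9, 123 and 116 CPM in PH day 3 livers and 91.6, 98.1, 82.3, 102 and 88.8 CPM in PH day 0 livers (0.13 ± 0.11, adjusted p = 0.47). Irf9 had 26.7, 42.6, 34.5, 32.0 and 37.4 CPM in PH day 3 livers and 46.4, 38.8, 38.1, 47.8 and 47.4 CPM in PH day 0 livers. Irf9 did not pass (-0.32 ± 0.13, adjusted p = 0.095), but did without PH day 3 replicate 13 (-0.41, adjusted p = 0.04). Isg15 had 11.1, 13.5, 8.39, 8.74 and 8.09 CPM in PH day 3 livers and 10.9, 10.9, 10.9, 19.9 and 10.8 CPM in PH day 0 livers, and did not pass (-0.32 ± 0.23, adjusted p = 0.38). Usp18 had 14.0, 16.9, 6.52, 9.43 and 12.5 CPM in PH day 3 livers and 8.80, 7.41, 15.5, 19.5 and 16.6 CPM in PH day 0 livers (-0.14 ± 0.28, adjusted p = 0.79).

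The genes called in 1 challenge can be set beside the other. Ifi27, raised by CCl4, averaged 91.5 ± 27.3 CPM in PH day 3 livers and 95.4 ± 17.9 CPM in PH day 0 livers (SD, n = 5 each; log2 fold change -0.04 ± 0.19, adjusted p = 0.92). Bst2 averaged 139 ± 16.2 CPM in PH day 3 livers and 133 ± 17.8 CPM in PH day 0 livers (0.08 ± 0.10, adjusted p = 0.64). Ifitm3 averaged 320 ± 30.9 CPM in PH day 3 livers and 324 ± 41.3 CPM in PH day 0 livers (0.01 ± 0.10, adjusted p = 0.98), so its mean and its fitted change differ in sign near 0. Gbp2 averaged 4.48 ± 2.00 CPM in PH day 3 livers and 2.24 ± 1.28 CPM in PH day 0 livers and did not pass (1.00 ± 0.43, adjusted p = 0.12), and its difference between the responses was 0.32 ± 0.64 (adjusted p = 0.85). Oas1a, Oasl1 and Gbp3 had log2 fold changes of 0.35 ± 0.40, 0.16 ± 0.19 and -0.22 ± 0.33 after PH (adjusted p = 0.62, 0.62 and 0.72). In the other direction, Ifi47, lowered after PH, averaged 27.3 ± 5.68 CPM in CCl4 livers and 21.2 ± 8.58 CPM in olive oil livers (SD, n = 3 each; 0.33 ± 0.28, adjusted p = 0.44). Ifit3, Rtp4 and Irgm1 had log2 fold changes of -0.34, -0.28 and -0.02 after CCl4 (adjusted p = 0.45, 0.51 and 0.96), each of which was positive with library size scaling.

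**Figure D3:**
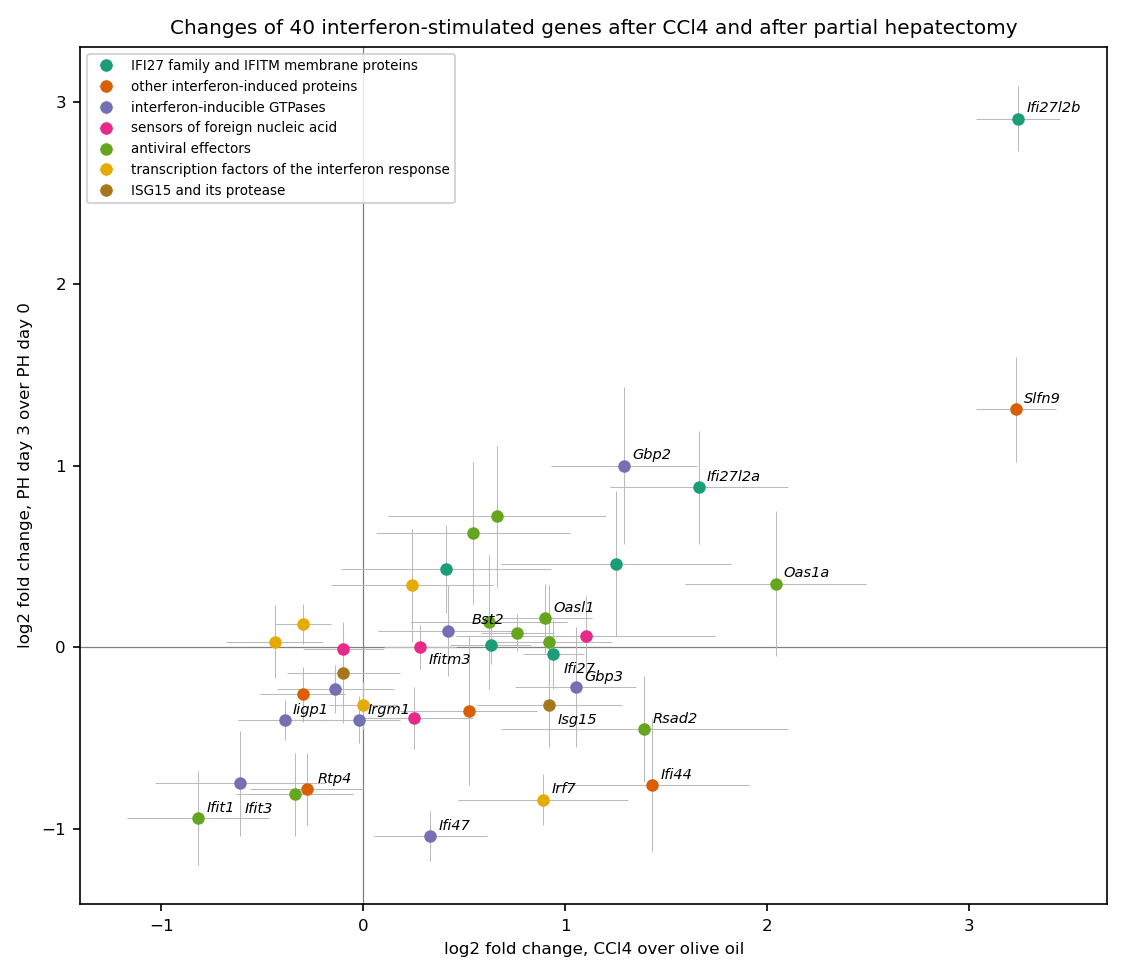
Log2 fold change of CCl4 over olive oil (horizontal axis) and of PH day 3 over PH day 0 (vertical axis) for the 40 interferon-stimulated genes tested in both comparisons, coloured by role; lines are standard errors. Ifi27l2b and Slfn9 lie at the upper right, Ifi27, Bst2 and Ifitm3 near 0 on the vertical axis, and Ifi47 at the bottom.

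The difference between the responses was tested itself, in a fit of all 16 samples, as the CCl4 change minus the PH change. Of the 39 genes 6 were called with a higher response to CCl4 and 0 with a lower one, against 1.47% higher, 3.87% lower and 5.33% in either direction of all 11868 genes tested. Without adjustment 12 were higher and 1 lower at p under 0.05; DESeq2 called 6 and 0, and limma-voom 5 and 0. The median difference of the 39 was 0.51 on the log2 scale, with 32 positive and 7 negative, while that of all genes was 0.02. With library size scaling the all-gene median moved up by 0.28, the median of the 39 was 0.81, and the higher share of all calls was 75.9% in place of 27.5%. Slfn9 differed by 1.95 ± 0.42 (SE; adjusted p = 0.0069) and Ifi47 by 1.39 ± 0.29 (adjusted p = 0.0048), and both calls held under every alternative. For Slfn9 the 2 changes had the same sign and unequal size, and for Ifi47 they had opposite signs, of which the fall after PH alone passed.

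The other 4 calls were less stable. Ifi44, a cytoplasmic protein of unclear function, had 12.4, 4.58 and 8.53 CPM in CCl4 livers, against 4.26, 3.26 and 1.65 CPM in olive oil livers (1.43 ± 0.48, adjusted p = 0.054). It averaged 2.52 ± 0.777 CPM in PH day 3 livers and 4.48 ± 1.74 CPM in PH day 0 livers (-0.76 ± 0.37, adjusted p = 0.18), so it was not called in either challenge, while its difference of 2.23 ± 0.60 was (adjusted p = 0.029). Both depended on the setting. Ifi44 was called after CCl4 with DESeq2 (adjusted p = 0.025), without a filter (0.0088), with library size scaling (0.011) and without CCl4 replicate 2 (0.03). Its difference was not called with limma-voom (adjusted p = 0.096) or without CCl4 replicate 1, olive oil replicate 2 or 3, or PH day 0 replicate 15 (up to 0.098). Ifi27 differed by 1.01 ± 0.27 (adjusted p = 0.032), Bst2 by 0.71 ± 0.20 (adjusted p = 0.033) and Ifitm3 by 0.65 ± 0.19 (adjusted p = 0.043). The count of 6 fell to 3 without CCl4 replicate 3, olive oil replicate 1, olive oil replicate 3 or PH day 3 replicate 14, and to 2 without PH day 0 replicate 15. The injection and PH libraries are named as separate experiments in the file headers, so experiment and challenge cannot be told apart in this difference.

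The 41 genes also varied within groups. CCl4 replicate 1 was the highest of its 3 in 21 of the 41 genes and the lowest in 12, and CCl4 replicate 3 was the highest in 16. Rsad2, which encodes the antiviral enzyme viperin, had 32.6 CPM there against 8.30 and 7.88 CPM in the other CCl4 livers and 7.78, 7.40 and 2.83 CPM in olive oil livers. Zbp1, a sensor of Z-form nucleic acid, had 51.4 CPM there against 14.6 and 19.4 CPM, and 7.02, 20.7 and 10.6 CPM in olive oil livers. Ifitm2 had 205 CPM against 67.8 and 75.2 CPM, and 58.4, 104 and 94.5 CPM in olive oil livers. These 3 genes were chosen after their values were seen. The same liver had the highest sum of 7 neutrophil markers, at 65.3 CPM against 3.35 and 10.7 CPM in the other CCl4 livers and 0.251 to 13.1 CPM in olive oil livers, and the part of this in the values was not tested. In the PH day 0 group replicate 15 was the highest of 5 in 20 of the 41 genes and the lowest in 3, and in the PH day 3 group replicate 13 was the highest in 17 and the lowest in 10. The median over the 41 genes of log2(CPM + 1) was 4.50, 3.90 and 4.05 in CCl4 livers, against 3.89, 3.67 and 3.28 in olive oil livers, and these ranges barely separated. It was 3.73, 4.03, 3.41, 3.53 and 3.47 in PH day 3 livers, against 3.98, 3.57, 3.81, 4.24 and 3.72 in PH day 0 livers, which overlapped. These tallies and medians include Ifi27l2b and Irf7, which were chosen by their values. They describe the samples only, and the narrow gap after CCl4 (3.90 against 3.89) is not a test of a difference.

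**Figure D4:**
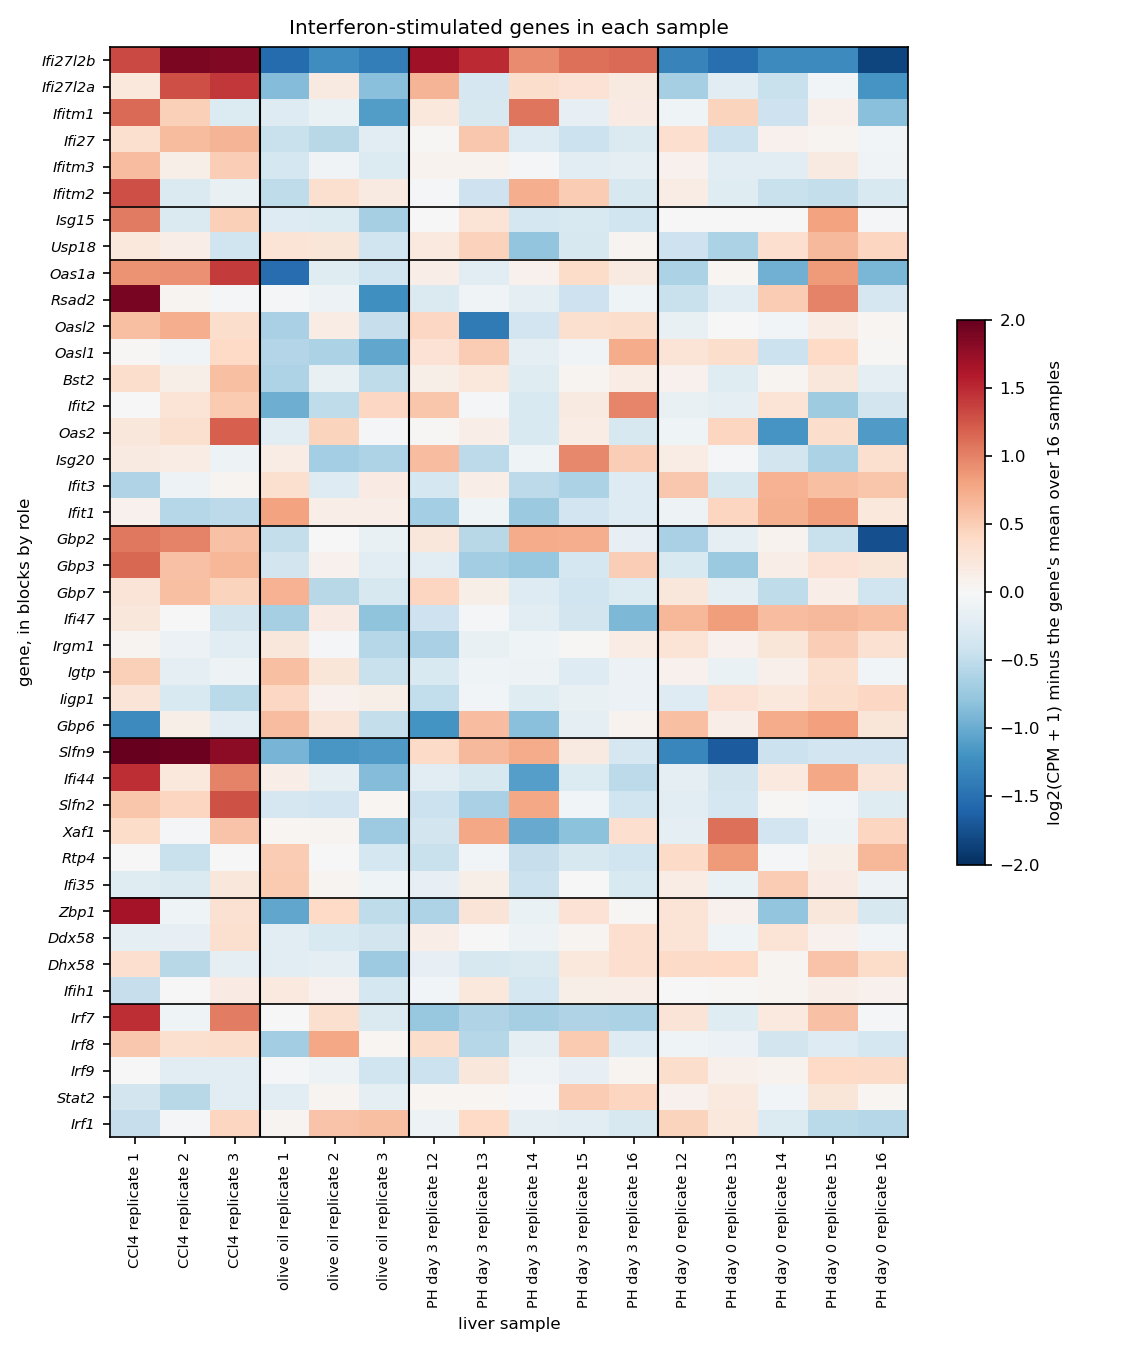
Heat map of log2(CPM + 1) of the 41 interferon-stimulated genes minus each gene's mean over 16 samples, from -2 (blue) to 2 (red), with samples as columns by group and genes as rows in blocks by role. CCl4 replicate 1 shows red cells for Rsad2, Zbp1, Ifitm2 and Irf7, and Ifi27l2b is red in every challenged liver and blue in every control.

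Levels differed widely between members. Per kb of summed exon length, Ifitm3 was highest, at 659 CPM in CCl4 livers and 419 CPM in olive oil livers. The mean CPM per kb over the 4 groups was 151 for Bst2, 140 for Ifitm2, 95.2 for Iigp1, 67.5 for Ifi27 and 29.4 for Ifi27l2b, which with Ifitm3 are the 6 genes of at least 20 CPM per kb. The median over the 41 genes was 5.50 CPM per kb, and 10 genes were under 2 CPM per kb, down to 0.758 CPM per kb for Ifi44. In the control livers Ifi27l2b was at 6.24 (olive oil) and 6.01 CPM per kb (PH day 0), near the median, and in the challenged livers at 60.2 (CCl4) and 45.1 CPM per kb (PH day 3). Slfn9 was at 6.80 CPM per kb in CCl4 livers and 0.709 CPM per kb in olive oil livers.

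The rest of the pathway was read from lists of ligands, receptors, transducers, inhibitors, sensors and other targets, which were also drawn up with earlier results known. Counts of called genes in these lists stand beside shares over all genes of 11.3% higher and 11.6% lower after CCl4. After PH these shares were 9.73% higher and 8.01% lower. All 21 interferon genes, among them Ifnb1, Ifng, Ifnl2 and Ifnl3, had 0 counts in every one of the 16 libraries. A count of 0 allows up to 3 counts in a library, which is 0.372 to 1.02 CPM, and this limit covers counting error only. Reads that map to more than 1 place were not counted, so reads of close copies, such as the Ifna genes or Ifnl2 and Ifnl3, may be missed. Of the 5 receptor genes tested, Ifngr1, the ligand-binding chain of the interferon gamma receptor, rose in both challenges. It averaged 35.2 ± 5.85 CPM in CCl4 livers and 18.1 ± 5.38 CPM in olive oil livers (0.93 ± 0.23, adjusted p = 0.017). After PH it averaged 20.8 ± 4.51 CPM in PH day 3 livers and 13.5 ± 2.21 CPM in PH day 0 livers (0.63 ± 0.18, adjusted p = 0.015). Removing CCl4 replicate 2, or control replicate 1 or 2, undid the first call (adjusted p up to 0.069), and removing PH day 3 replicate 14 undid the second (adjusted p = 0.06).

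Of the 6 Janus kinase and STAT genes tested, 1 rose and 1 fell after CCl4, where all genes gave 11.3% higher and 11.6% lower. Jak1, the kinase shared by the interferon receptors, averaged 132 ± 4.25 CPM in CCl4 livers and 95.1 ± 9.25 CPM in olive oil livers (0.45 ± 0.14, adjusted p = 0.04). Stat6, which serves interleukin-4, averaged 52.0 ± 3.24 CPM in CCl4 livers and 78.2 ± 1.51 CPM in olive oil livers (-0.62 ± 0.12, adjusted p = 0.0061). The call of Jak1 ended without filtering and without any single library of the comparison other than CCl4 replicate 1 (adjusted p up to 0.17). That of Stat6 ended with library size scaling (adjusted p = 0.58).

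Among 10 negative regulators tested, Irf2, a repressor at the same DNA elements, fell after CCl4. It averaged 37.8 ± 5.07 CPM in CCl4 livers and 77.7 ± 11.8 CPM in olive oil livers (-1.06 ± 0.16, adjusted p = 0.0013). In regenerating livers it averaged 52.0 ± 5.64 CPM, against 49.5 ± 3.99 CPM in PH day 0 livers, and the difference between the responses was -1.13 ± 0.18 (adjusted p = 0.00057), a call that held under every alternative. Its fall after CCl4 was called under every alternative except library size scaling (-0.59, adjusted p = 0.069). For Irf2 the olive oil livers were the highest of the groups, at 77.7 CPM, against 49.5 CPM in the other control, PH day 0. That gap was not tested. The phosphatases Ptpn6 (-0.60 ± 0.19, adjusted p = 0.044) and Ptpn11 (0.44 ± 0.14, adjusted p = 0.047) passed narrowly after CCl4, and Trim24 after PH (0.57 ± 0.18, adjusted p = 0.029). Removal of single libraries undid each of those 3 calls: 4 for Ptpn6, all 6 for Ptpn11 and 8 of 10 for Trim24 (adjusted p up to 0.62, 0.18 and 0.08 over all alternatives).

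The sensing pathway upstream of interferon gave 3 higher and 1 lower of 14 genes tested after CCl4, and 0 higher and 3 lower of 10 after PH, where all genes gave 11.3% higher and 11.6% lower after CCl4 and 9.73% higher and 8.01% lower after PH. Mavs, the mitochondrial adaptor of RNA sensors, fell in both. It averaged 55.7 ± 7.85 CPM in CCl4 livers and 82.9 ± 4.16 CPM in olive oil livers (-0.60 ± 0.15, adjusted p = 0.015), and 69.6 ± 7.15 CPM in PH day 3 livers and 99.6 ± 10.8 CPM in PH day 0 livers (-0.49 ± 0.10, adjusted p = 0.0013). The first of these ended without CCl4 replicate 2, without any 1 olive oil replicate and with library size scaling (adjusted p up to 0.5), and the second held under every alternative. Irf3, the factor that first switches on interferon genes, averaged 44.5 ± 4.02 CPM in PH day 3 livers and 69.8 ± 7.83 CPM in PH day 0 livers (-0.63 ± 0.11, adjusted p = 0.00015). Irf5 averaged 19.0 ± 5.09 CPM in PH day 3 livers and 29.4 ± 3.77 CPM in PH day 0 livers (-0.62 ± 0.17, adjusted p = 0.011). These 2 calls held under every alternative at the 0.05 threshold. The risen genes after CCl4 were Traf3 (0.77 ± 0.22, adjusted p = 0.03), Tlr7 (2.85 ± 0.77, adjusted p = 0.024) and Tmem173, which encodes STING (1.86 ± 0.55, adjusted p = 0.034). Tlr7, an endosomal RNA receptor of immune cells, was at 3.67 ± 1.37 CPM in CCl4 livers and 0.491 ± 0.502 CPM in olive oil livers, close to the counting limit. Tmem173 was also low, at 3.58 to 5.91 CPM in CCl4 livers and 0.502 to 2.18 CPM in olive oil livers. Its call was not followed over the alternatives. The calls of Traf3 and Tlr7 each ended without CCl4 replicate 3 and without a pair of olive oil replicates in turn (1 and 3 for Traf3, 2 and 3 for Tlr7; adjusted p up to 0.11).

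Of 68 other interferon-inducible genes outside the 41, 7 of 57 tested rose and 5 fell after CCl4, and 1 of 46 rose and 4 fell after PH. The shares of all genes called were 11.3% higher and 11.6% lower after CCl4, and 9.73% higher and 8.01% lower after PH, so the CCl4 counts were near the background. Their medians were 0.24 and -0.21. Ly6e, a surface protein that restricts coronaviruses, rose in both. It averaged 824 ± 39.9 CPM in CCl4 livers and 346 ± 93.7 CPM in olive oil livers (1.22 ± 0.22, adjusted p = 0.0036), and 811 ± 169 CPM in PH day 3 livers and 546 ± 93.8 CPM in PH day 0 livers (0.59 ± 0.15, adjusted p = 0.013). Both calls held under every alternative at the 0.05 threshold. Apol9b fell to 37.9 ± 10.4 CPM in CCl4 livers, against 79.4 ± 3.87 CPM in olive oil livers (-1.10 ± 0.19, adjusted p = 0.0027), a call that library size scaling ended (adjusted p = 0.059). F830016B08Rik had a mean of 3.24 CPM in CCl4 livers, against 18.1 CPM in olive oil livers (-2.57 ± 0.46, adjusted p = 0.0041). The olive oil livers were the high group, at 14.1 to 20.1 CPM. PH day 3 livers had 0.259 to 6.07 CPM and PH day 0 livers 2.09 to 4.94 CPM, near the CCl4 level. After PH, Irgm2, a further IRG GTPase, averaged 51.5 ± 11.0 CPM in PH day 3 livers and 76.1 ± 15.4 CPM in PH day 0 livers (-0.54 ± 0.15, adjusted p = 0.018). Znfx1, an RNA helicase, averaged 36.2 ± 4.96 CPM in PH day 3 livers and 50.3 ± 6.53 CPM in PH day 0 livers (-0.45 ± 0.13, adjusted p = 0.016). Library size scaling ended the calls of Irgm2 and Znfx1 (adjusted p = 0.12 and 0.1). The 12 genes called after CCl4 were 7, 7 and 5 on removal of olive oil replicate 1, 2 or 3. Between the responses, Lgals3bp (0.70 ± 0.18, adjusted p = 0.02), Tgtp2 (2.67 ± 0.76, adjusted p = 0.038) and Apol9b (-0.76 ± 0.21, adjusted p = 0.034) differed. Lgals3bp lost its call on removal of olive oil replicate 3 alone (adjusted p = 0.087). Tgtp2 lost its own on removal of any of 12 single libraries (adjusted p up to 0.096), without a filter (0.064) and with limma-voom (0.073). Apol9b did so on removal of any of 9 single libraries (adjusted p up to 0.14) and with library size scaling (-0.47, adjusted p = 0.23). Tgtp2 was close to the counting limit, at 0.87 to 1.0 CPM in olive oil livers and 2.6 to 5.05 CPM in CCl4 livers. It had 0.621 to 2.76 CPM in PH day 3 livers and 1.02 to 3.73 CPM in PH day 0 livers.

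Markers of other cells moved in the same samples. Over all genes tested, 11.3% were called higher and 11.6% lower after CCl4, and 9.73% higher and 8.01% lower after PH. In whole liver, fewer cells of a type and less RNA per cell cannot be told apart. The 9 monocyte and infiltrating macrophage markers summed to 221 to 269 CPM in CCl4 livers, against 51.4 to 165 CPM in olive oil livers, and 3 of 6 tested rose (Ccr2, Cd68 and Lyz2). Without Lyz2 the other 8 summed to 94.3 to 125 CPM in CCl4 livers and 28.6 to 96.2 CPM in olive oil livers, which overlapped. The 8 Kupffer cell markers summed to 311 to 552 CPM in CCl4 livers, against 466 to 834 CPM in olive oil livers, and Timd4 and C6 fell. C6 made up much of that sum, at 103 to 192 CPM in CCl4 livers and 330 to 439 CPM in olive oil livers, and the other 7 markers summed to 208 to 360 CPM in CCl4 livers and 136 to 395 CPM in olive oil livers. The 7 stellate cell and myofibroblast markers summed to 229 to 440 CPM in CCl4 livers, against 105 to 137 CPM in olive oil livers, and 4 of 7 rose. The 5 red cell markers summed to 133 to 244 CPM in CCl4 livers, against 434 to 516 CPM in olive oil livers, and all 5 fell. Plasmacytoid dendritic cells are a main source of type I interferon, and their list of 6 markers shares Bst2 with the 41 genes. Those 6 summed to 166 to 216 CPM in CCl4 livers, against 101 to 134 CPM in olive oil livers. Without Bst2 the other 5 summed to 14.1 to 21.3 CPM in CCl4 livers and 13.0 to 14.5 CPM in olive oil livers. Siglech, which defines these cells, was at 0 to 0.496 CPM in CCl4 livers and 0 to 0.942 CPM in olive oil livers. The 11 T and NK cell markers summed to 0.632 to 3.22 CPM in CCl4 livers and 2.76 to 4.95 CPM in olive oil livers. Conventional dendritic cell markers (7.16 to 9.85 CPM in CCl4 livers, 4.79 to 9.03 CPM in olive oil livers) and B cell markers (5.42 to 8.18 CPM in CCl4 livers, 4.95 to 9.78 CPM in olive oil livers) were also low.

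After PH the Kupffer cell markers summed to 497 to 608 CPM in PH day 3 livers, against 645 to 720 CPM in PH day 0 livers, with C6 lower and Marco higher. Without C6 the other 7 summed to 183 to 356 CPM in PH day 3 livers and 149 to 231 CPM in PH day 0 livers, which is not lower. The 7 endothelial markers summed to 111 to 186 CPM in PH day 3 livers, against 166 to 211 CPM in PH day 0 livers, with Clec4g, Fcgr2b and Kdr lower, and to 122 to 140 CPM in CCl4 livers, against 108 to 130 CPM in olive oil livers, with Lyve1 higher. Hepatocyte markers summed to 106855 to 123797 CPM in PH day 3 livers, against 72237 to 89569 CPM in PH day 0 livers, with Alb higher and Apoa1 and Serpina1a lower. Without Alb the other 6 summed to 21650 to 24411 CPM in PH day 3 livers and 23205 to 25934 CPM in PH day 0 livers. Monocyte markers summed to 73.9 to 165 CPM in PH day 3 livers and 71.5 to 109 CPM in PH day 0 livers, and neutrophil markers to 2.26 to 9.89 CPM in PH day 3 livers and 0.678 to 1.73 CPM in PH day 0 livers. T and NK cell markers were at 1.13 to 7.15 CPM in PH day 3 livers and 2.66 to 6.40 CPM in PH day 0 livers. Stellate cell and myofibroblast markers summed to 163 to 464 CPM in PH day 3 livers and 103 to 211 CPM in PH day 0 livers, with Col1a1 and Pdgfrb higher. Red cell markers summed to 684 to 1868 CPM in PH day 3 livers and 757 to 2060 CPM in PH day 0 livers, with Alas2 lower. PH day 3 replicate 12 stood apart in Des (188 CPM, against 4.05 to 30.1 CPM in the other PH day 3 livers) and Cox6a2 (34 CPM, against 0 to 3.42 CPM), genes also expressed in muscle and picked out after their values were seen. Without that liver 1 interferon-stimulated gene was higher and 5 were lower after PH. The part of these shifts in the changes of the interferon-stimulated genes was not tested.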

How the data were processed

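Counts per gene were deposited by the authors, 1 file per sample, from featureCounts 1.6.2 over Ensembl release 95 exons, reverse-stranded and without options for multi-mapping or overlapping reads, per the file headers. Per the submitters' processing notes, the tools were STAR 2.5.1 and Subread, and the build GRCm38. Symbols were found for 54723 of 54838 identifiers.

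Counts were tested with edgeR 4.0.16 in R 4.3.3 (quasi-likelihood F test, robust, TMM factors, filterByExpr with minimum count 10 and minimum total 15, Benjamini-Hochberg adjusted p under 0.05 over all genes tested). Each challenge had its own fit, and the difference of responses a 4-group fit. Standard errors were derived from the log2 fold change and its F statistic. Scripts were tested on simulated data. Alternatives were RLE factors, library size only, no filter, DESeq2 1.42.0, limma-voom (limma 3.58.1), an adjusted p under 0.01, leaving out each library, and the PH replicate number as a block.

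The members and lists were chosen with earlier results of these data known. The result of 1 pathway gene is not reported here. Values per sample are given for genes called in either challenge and for Ifi27l2b, Irf7, Stat2, Irf9, Isg15 and Usp18, and values are given for the 3 called genes of smallest adjusted p per pathway list; genes named by another rule are marked. No 2 files were identical. Since nothing in the labels states 1 animal per sample, p-values measure the spread between these samples, which may be technical. Total counts per sample were 2795909 to 8647503.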

Additional observations from a re-analysis of the deposited data

Results flagged for a closer look

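Samples that stood apart from the other 4 of their group were sought for the named genes in the PH groups, in 44 groups of 5 samples, by the gap to the nearest sample as a share of the range (limit 0.71). Chance gives about 1 such sample in 20 groups, and 4 were found. Isg15 was 19.9 CPM in PH day 0 replicate 15, against 10.8 to 10.9 CPM in the other 4. Ifit3 was 7.66 CPM in PH day 0 replicate 13, against 14.8 to 16.5 CPM in the others. Ifi47 was 50.2 CPM in PH day 0 replicate 13, against 42.7 to 44.4 CPM in the others. Rtp4 was 13.0 CPM in PH day 3 replicate 13, against 9.63 to 10.6 CPM in the others.

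The response to CCl4 minus that to PH differed in the test of the difference itself for Ifi44 (2.23 on the log2 scale, adjusted p = 0.029), Slfn9 (1.95, adjusted p = 0.0069), Ifi47 (1.39, adjusted p = 0.0048), Ifi27 (1.01, adjusted p = 0.032), Bst2 (0.71, adjusted p = 0.033) and Ifitm3 (0.65, adjusted p = 0.043), by edgeR's quasi-likelihood test.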

How the results depend on the processing

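With 3 livers per group in the CCl4 comparison, most of its calls ended when some single library was left out. A fit with 1 library fewer also has less power, so a lost call does not show that the library drove it. In the fits that ended their calls, Ifitm3 was at 0.56 to 0.7 (0.63 with all libraries). Ifi27l2a was then at 1.43 to 1.52 (1.66 with all libraries). Under every alternative at the 0.05 threshold, the CCl4 calls of Ifi27, Oas1a and Slfn9 held. So did the PH calls of Ifi47, Rtp4 and Slfn9, and the differences of Ifi47 and Slfn9. Leaving out 1 library at a time gave 3 to 9 genes higher and 0 to 2 lower after CCl4 (the 2 being Ifit1 and Iigp1, without CCl4 replicate 1), 1 to 2 higher after PH (Ifi27l2a added), 4 to 7 lower after PH (4 without PH day 0 replicate 15, where Ifit1 and Irgm1 were lost, and 7 without PH day 3 replicate 13, where Irgm1 was lost and Irf9 was among those added), and 2 to 6 with a higher response to CCl4. With library size only, 17 genes were higher after CCl4, and 2 were higher and 3 lower after PH. At an adjusted p under 0.01, 3 were higher after CCl4, 2 lower after PH and 2 higher in the difference. DESeq2 and limma-voom each called 2 higher after PH. The longer ISRE motif was found in 35.5% of the genes in place of 54.8%.

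Values of genes that were not called, near 0, changed sign. With library size only, the log2 changes after CCl4 were 0.14 for Ifit3, 0.15 for Stat2, 0.33 for Usp18, 0.15 for Rtp4, 0.41 for Irgm1 and 0.01 for Iigp1, and after PH 0.11 for Ifi27. With limma-voom, Irf9 was -0.00 and Irgm1 0.01 after CCl4, and without a filter Ifitm3 was -0.02 after PH. Leaving out 1 library gave -0.12 to 0.07 for Irf9, -0.22 to 0.16 for Irgm1 and -0.31 to 0.08 for Usp18 after CCl4, and -0.23 to 0.05 for Ifi27, -0.04 to 0.06 for Ifitm3 and -0.30 to 0.03 for Usp18 after PH. The cause was not tested.

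Whether the same PH replicate number marks the same mouse is not given in the labels and was not settled here. The main fit did not use the numbers as pairs, and only the alternative with the replicate block did. Same-numbered samples deviated from their group means with correlations of -0.046 to 0.104 over 10546 genes, and 2 of 5 samples correlated best with their own number. With the replicate block, 1 gene was higher and 6 were lower, with a median of -0.04.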
